A study of Mus musculus with 6 samples.

Results

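Heat shock proteins, their co-chaperones and the subunits of the cytosolic chaperonin were followed in human neuroblastoma tumours grown in mice and treated with BL-8040, which blocks the chemokine receptor CXCR4. The set is a list of 44 genes taken by name and function, and 41 of them had a probe set that the platform annotation gives to a single gene; the whole table holds 18417 such genes. AHSA1 and HSF2 were not analysed here, and ST13 was left out because its probe set also reads ST13 pseudogenes. HSPH1, the large stress chaperone HSP105, was given as the marker gene of the set. By location the list is wider than the cytosol, because HSPA9, HSPD1, HSPE1, TRAP1 and DNAJA3 act in mitochondria and SERPINH1 in the endoplasmic reticulum.

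Groups of 3 tumours were compared, each grown from SK-N-BE(2), a human cell line of neuroblastoma in which MYCN is amplified. The cells were placed in an adrenal gland of NSG mice, which have no T, B or natural killer cells. BL-8040 mice received 400 µg under the skin on 14 consecutive days, starting 7 days after the cells were injected, and gave 3 tumours. Control mice gave the other 3 tumours; what they received is unclear, because the same treatment text stands on their labels, and no age is given for the animals. All 6 tumours thus come from 1 cell line in 1 host strain, and each was read on 1 array of human probe sets, which binds mouse transcripts of the host only in part.

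Chaperones bind proteins that are not yet folded or have lost their fold. HSP70 proteins hold short exposed stretches of a client and release them in cycles of ATP hydrolysis that J proteins start and that HSP110 and BAG proteins end by removing ADP. HSP90 takes over kinases, steroid receptors and other clients at a late stage of folding with the help of its own co-chaperones, while the ring-shaped chaperonin CCT, also called TRiC, encloses actin and tubulin. Under proteotoxic stress the transcription factor HSF1 raises many of these genes together, and tumour cells often keep them at high levels.

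Chaperone transcripts differed little between the groups. Their median difference was -0.03 log2 units (BL-8040 minus control), beside -0.02 over all 18417 genes, and the members ran from -0.29 for HSPH1 to 0.19 for DNAJB4. In limma, 0 of 41 members passed a Benjamini-Hochberg adjusted p under 0.05, as did 0 of all genes (0%), and the smallest adjusted p of a member was 0.644. At an unadjusted limma p under 0.05 there were 2 members, HSPH1 and TRAP1, both lower after BL-8040. They make up 4.88% of the members, beside 7.72% of all genes in either direction, 2.64% higher and 5.08% lower. The 3 BL-8040 values lay wholly below the 3 controls in 6 members (HSPH1, HSPA4L, TRAP1, STIP1, HSF1 and CCT7) and wholly above them in 0. That is 14.6% of the members, near the 14.0% of all genes whose groups did not overlap; among all genes 9.05% were separated with the BL-8040 values lower and 4.93% with them higher. A difference below 0 was found in 27 members (65.9%), beside 58.5% of all genes, and a difference above 0 in 14 (34.1%), beside 41.5%. These counts lie close to those of the whole array.

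**Figure D1:**
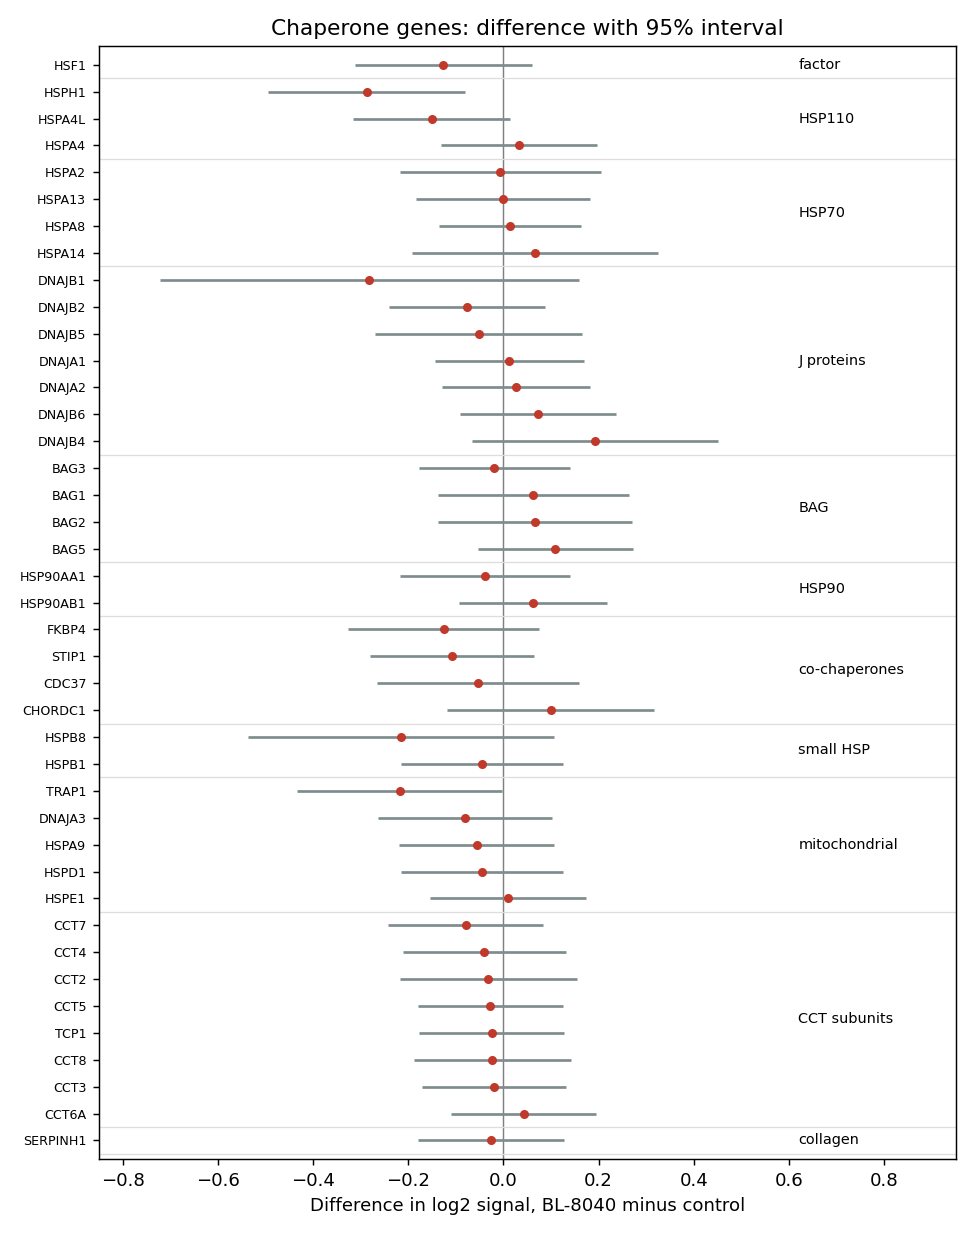
Difference in log2 signal between BL-8040 and control tumours (x axis) for the 41 chaperone genes (y axis, grouped by role); points are limma estimates from 3 arrays per group and lines their 95% intervals. HSPH1 at -0.29 and TRAP1 at -0.22 are the only members whose interval lies below 0, and none lies above it.

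The intervals were narrow for most of these genes. The 95% interval of the difference stayed within 0.3 log2 units (1.23-fold) on both sides of 0 in 31 of 41 members, or 75.6%, beside 56.3% of all genes. The median spread between replicates was 0.07 log2 units (SD within groups) for the members and 0.11 for all genes. For genes with a signal at or above the median it was 0.09. Signal was above the median of all genes for 37 members; HSPA2, DNAJB2, DNAJB4 and HSPB8 lay below it, where a difference is read less surely. The probe sets of HSPA8, HSPD1, HSPE1, HSP90AA1 and HSP90AB1 may also read processed pseudogenes with nearly the same sequence, so their values are uncertain in that respect. Bulk tumour RNA does not tell fewer cells of a type from less RNA per cell.

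BL-8040 replicate 3 stood apart from the other arrays: on the first principal component over all genes, which held 37.2% of the variance, it lay at -22.7 and the others between -0.74 and 10.1. It held the lowest value of 30.5% of all genes, and of 9 of the 41 members. The median deviation of the members from their own 6-array means was -0.01, 0.01 and -0.03 in BL-8040 replicates 1, 2 and 3, against 0.02, 0.05 and -0.03 in control replicates 1, 2 and 3. Control replicate 3 was as low as BL-8040 replicate 3, so the groups overlapped, and it held the lowest value of 14 members and the highest of 0. Without BL-8040 replicate 3, 26 members had a difference below 0, and HSPH1 was the 1 member lower at an unadjusted limma p under 0.05, as it also was without each control replicate in turn; without BL-8040 replicate 2 there were 3. Without control replicate 2, which held the highest value of 15 members, 23 members had a difference below 0, and without control replicate 3 there were 31. The median difference of the members, -0.03 with all arrays, was -0.0026 without control replicate 2 and -0.05 without control replicate 3. Leaving out 1 array moved 30 of the 31 member differences smaller than 0.1 log2 units by over 1.5 times, HSP90AB1 being the exception, and 7 of the 10 larger ones; HSPH1, HSPA4L and BAG5 moved by less.

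**Figure D2:**
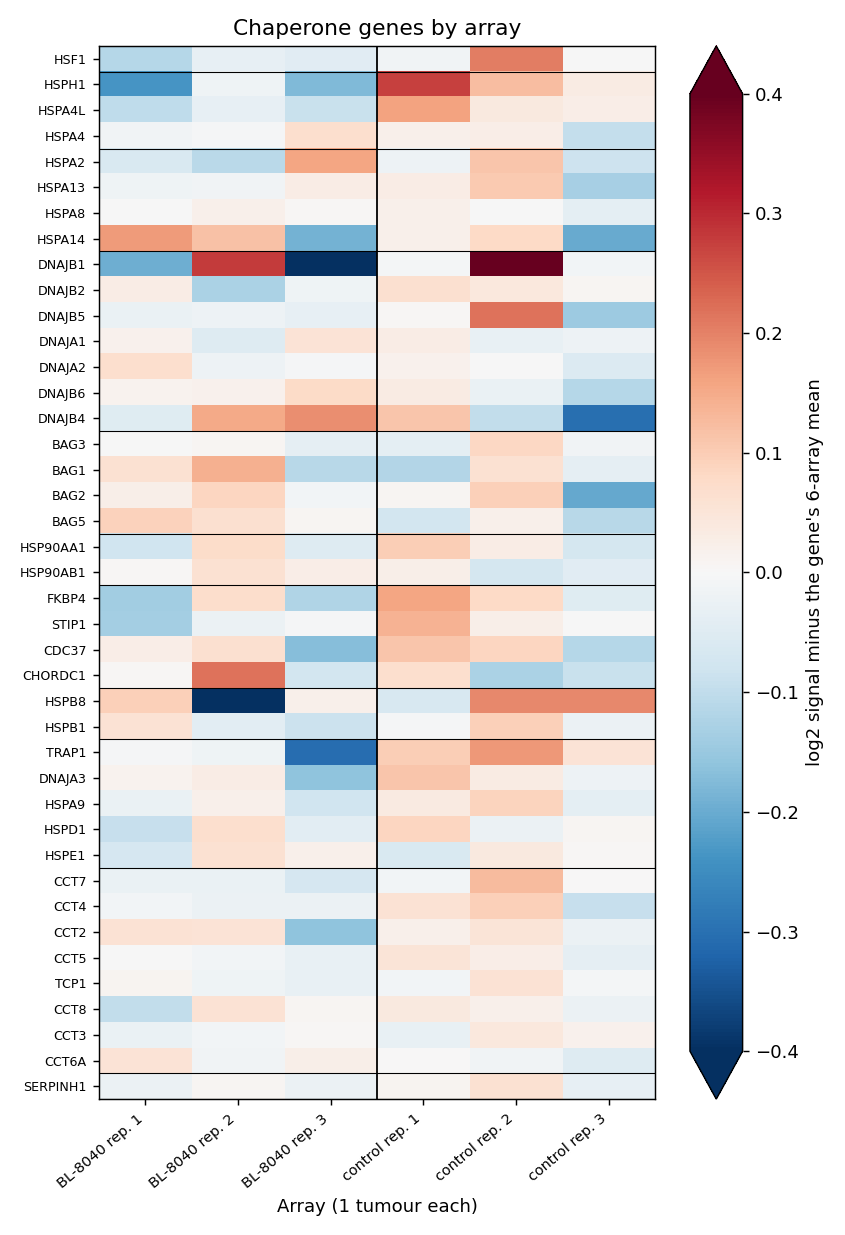
Log2 signal of each of the 41 chaperone genes (rows, grouped by role) in the 6 arrays (columns), given as the deviation from the gene's mean over all arrays; the colour scale ends at 0.4 log2 units and stronger deviations take the end colours. Most rows are pale, HSPH1 is low in the BL-8040 columns and high in the control columns, and DNAJB1 varies most, between BL-8040 replicate 3 and control replicate 2.

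HSF1, the transcription factor that switches on heat shock genes, had log2 values of 7.99, 8.07 and 8.06 in BL-8040 replicates 1, 2 and 3, against 8.09, 8.31 and 8.10 in the controls. All treated values were below all control values, but the nearest of them were almost level, and control replicate 2 stood above the rest. HSF1 averaged 8.04 ± 0.04 in treated and 8.17 ± 0.12 in control tumours (SD, n = 3 each), a difference of -0.13 with a 95% interval from -0.31 to 0.06 (limma adjusted p = 0.697). Without control replicate 2 the HSF1 difference was -0.06.

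The groups were separated, with BL-8040 lower, in 2 of the 3 HSP110 genes, HSPH1 and HSPA4L, beside 9.05% of all genes. A count over 3 genes gives no result about the family. HSP110 proteins are relatives of HSP70 that reload it with ATP and hold unfolded clients. HSPH1, its stress-inducible member, measured 8.28, 8.50 and 8.34 in the BL-8040 tumours, against 8.79, 8.64 and 8.55 in the controls. Every treated tumour was below every control, with BL-8040 replicate 2 and control replicate 3 nearly level. HSPH1 averaged 8.37 ± 0.11 in treated and 8.66 ± 0.12 in control tumours (SD, n = 3 each), which puts the treated tumours at 0.820 times the control level. The 95% interval of its difference, -0.29, ran from -0.49 to -0.08. In limma its unadjusted p was 0.0120, which ranked 294 among 18417 genes, and its adjusted p 0.644. An exact permutation test of the 3 against 3 values gave p = 0.1, the smallest that this design allows. The HSPH1 difference lay between -0.35 and -0.22 whichever array was left out, with an unadjusted limma p of at most 0.0497, and over all 15 fits its adjusted p ran between 0.465 and 0.896.

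HSPA4L, a second HSP110 protein that is abundant in testis, had 8.46, 8.53 and 8.47 after BL-8040, against 8.73, 8.60 and 8.59 in controls. Its groups did not overlap either, and control replicate 1 was the highest array, as it was for HSPH1. The HSPA4L difference was -0.15 with a 95% interval from -0.32 to 0.01 (limma adjusted p = 0.646), and its unadjusted p was under 0.05 in 4 of the 15 fits. HSPA4, the third and constitutive HSP110 gene, measured 8.89, 8.90 and 8.97 in the BL-8040 tumours, against 8.92, 8.93 and 8.81 in the controls. These values overlapped, and the HSPA4 difference of 0.03 had an interval from -0.13 to 0.20.

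As a description, paralogues were also set against each other within each array, for 3 pairs. The log2 ratio of HSPH1 over HSPA4 was -0.61, -0.40 and -0.63 in BL-8040 replicates 1, 2 and 3, against -0.13, -0.29 and -0.26 in the controls, which compares change and not level because each gene has its own probe set. The mean ratio differed by -0.32 between the groups, that of HSPA4L over HSPA4 by -0.18 and that of HSP90AA1 over HSP90AB1 by -0.10. The HSPH1 and HSPA4L ratios share HSPA4 as their denominator, the groups did not overlap in these and did in the HSP90 ratio, and none was tested, since the pairs were chosen after the values were seen.

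**Figure D3:**
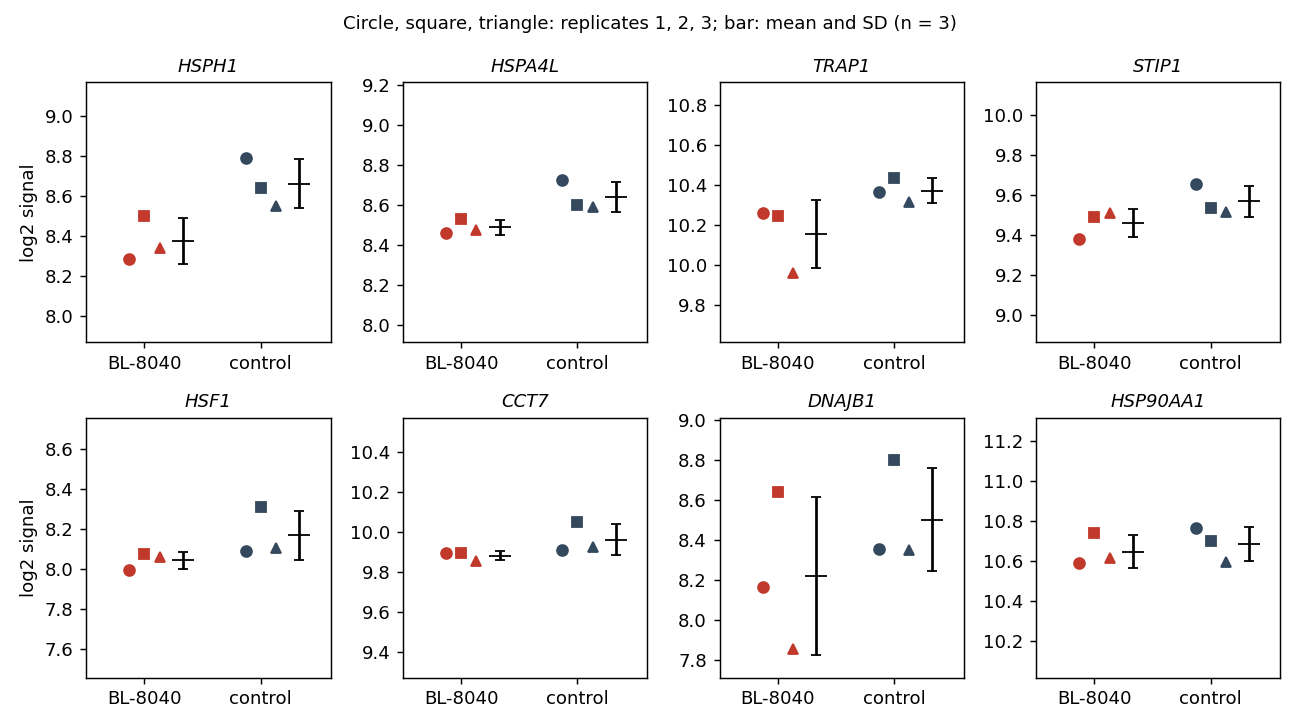
Log2 signal per array (y axis, spanning the same range in every panel) of the 6 members whose groups did not overlap and of DNAJB1 and HSP90AA1, in BL-8040 and control tumours; symbols are replicates 1, 2 and 3, and bars the mean and SD of 3 arrays. Of the 6, the means lie farthest apart for HSPH1, 1 low BL-8040 array enlarges the difference of TRAP1, and the DNAJB1 values of both groups are interleaved.

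The 4 HSP70 genes of the set differed by 0.07 log2 units at most, and all of their groups overlapped. HSPA8, the constitutive HSC70 that folds new proteins and strips clathrin coats, was 12.57, 12.59 and 12.57 after BL-8040, against 12.59, 12.57 and 12.53 in controls. All 6 tumours agreed within 0.06 log2 units, and the HSPA8 difference of 0.01 had an interval from -0.14 to 0.16, which leaves out a change of 1.15-fold in either direction. HSPA2, a form best known from sperm development, differed by -0.01, and HSPA13, a microsomal relative, by less than 0.01. HSPA14, which works on the ribosome, differed by 0.07 and was lowest in the third replicate of each group (6.42 after BL-8040, 6.41 in controls). The main heat-inducible HSP70 genes, HSPA1A and HSPA1B, share their probe sets with each other, so no value is given for either gene.

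J proteins, which bring clients to HSP70, were divided, with 4 higher and 3 lower (42.9%, beside 58.5% of all genes). DNAJB1, the HSP40 partner of inducible HSP70, had 8.17, 8.64 and 7.86 in BL-8040 replicates 1, 2 and 3, against 8.36, 8.80 and 8.35 in the controls. Treated and control values were interleaved, the highest being that of control replicate 2 and the lowest that of BL-8040 replicate 3. DNAJB1 averaged 8.22 ± 0.40 in treated and 8.50 ± 0.26 in control tumours (SD, n = 3 each). The DNAJB1 difference of -0.28 was nearly as large as that of HSPH1, but its 95% interval ran from -0.72 to 0.16 (limma adjusted p = 0.709, exact permutation p = 0.4). It became -0.10 without BL-8040 replicate 3, -0.13 without control replicate 2 and -0.49 without BL-8040 replicate 2.

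The DNAJB1 values followed both the neuroblastoma markers and genes that low oxygen induces in their order over the arrays. Orders were set out for all 41 members, so a match of 1 gene gives no result by itself. Over all genes, too, BL-8040 replicate 3 most often held the lowest value (30.5%) and control replicate 2 the highest (22.4%). The median deviation of 9 measured neuroblastoma markers was -0.04, 0.12 and -0.21 in BL-8040 replicates 1, 2 and 3, against 0.05, 0.30 and -0.02 in the controls. This puts the 6 arrays in the same order as DNAJB1, although DNAJB1 was nearly level in control replicates 1 and 3 (8.356 and 8.353). The order of that pair therefore does not tell the neuroblastoma markers from the genes that low oxygen induces. The median deviation of 27 measured hypoxia genes was -0.09, 0.12 and -0.38 in BL-8040 replicates 1, 2 and 3, against 0.00, 0.30 and 0.10 in the controls. DNAJB1 and the hypoxia list were both lowest in BL-8040 replicate 3, then in BL-8040 replicate 1, and highest in control replicate 2 after BL-8040 replicate 2; control replicates 1 and 3 changed places in the middle. HSPH1 did not share this order, since it was lowest in BL-8040 replicate 1 and highest in control replicate 1. All 27 hypoxia genes had a difference below 0 (58.5% of all genes did), with a median of -0.27. By limma 0 of the hypoxia genes were called and 5 were lower at an unadjusted p under 0.05, or 18.5%, beside 5.08% of all genes. The part of oxygen supply and of tumour cell state in the DNAJB1 values was not tested.

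**Figure D4:**
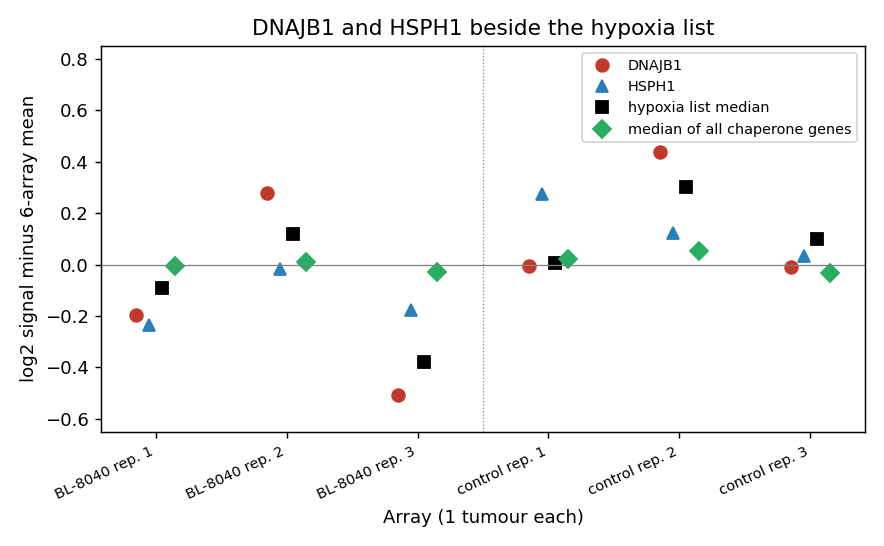
Deviation in log2 signal from the 6-array mean (y axis) in each tumour (x axis) for DNAJB1, HSPH1, the median of 27 hypoxia genes and the median of the 41 chaperone genes. DNAJB1 and the hypoxia median are both lowest in BL-8040 replicate 3 and highest in control replicate 2, while the chaperone median stays between -0.03 and 0.05.

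DNAJB4, a J protein that heat induces, showed the largest difference above 0, at 4.61, 4.82 and 4.85 after BL-8040, against 4.77, 4.57 and 4.36 in controls. Control replicate 3 was the lowest and the groups overlapped. The DNAJB4 difference was 0.19, with an interval from -0.07 to 0.45 (limma adjusted p = 0.680), 0.09 without control replicate 3 and 0.30 without control replicate 1. DNAJA1 and DNAJA2, the general HSP70 partners of the cytosol, differed by 0.01 and 0.03. DNAJB2, a neuronal form that passes clients to the proteasome, differed by -0.08 (-0.03 without BL-8040 replicate 2), and DNAJB5 by -0.05 (0.04 without control replicate 2). DNAJB6, which keeps polyglutamine proteins from aggregating, differed by 0.07 on its brighter probe set and by -0.08 on the other, and neither interval left out 0.

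BAG proteins bind the ATPase domain of HSP70 and release its ADP. BAG5 differed by 0.11, with values of 6.54, 6.51 and 6.46 after BL-8040, against 6.37, 6.47 and 6.34 in controls. Of its treated values only that of BL-8040 replicate 3 lay among the controls. BAG1, which links HSP70 to the proteasome, and BAG2, an inhibitor of the ubiquitin ligase CHIP, differed by 0.06 and 0.07, and without 1 array these were 0.0068 for BAG1 (BL-8040 replicate 2) and -0.02 for BAG2 (control replicate 3). BAG3, the stress-inducible member that steers clients to autophagy, differed by -0.02 with an interval from -0.18 to 0.14.

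HSP90 exists in the cytosol as an inducible and a constitutive form. HSP90AA1, the inducible one, was 10.59, 10.74 and 10.61 after BL-8040, against 10.76, 10.70 and 10.59 in controls. HSP90AB1, the constitutive one, was 12.00, 12.06 and 12.02 after BL-8040, against 12.02, 11.92 and 11.95 in controls. Both overlapped between groups: HSP90AA1 differed by -0.04 with an interval from -0.22 to 0.14, and HSP90AB1 by 0.06 with an interval from -0.09 to 0.22.

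Among the co-chaperones, STIP1, the adaptor HOP that holds HSP70 and HSP90 together, measured 9.38, 9.49 and 9.51 after BL-8040, against 9.65, 9.54 and 9.51 in controls. The groups touched without overlapping, as BL-8040 replicate 3 and control replicate 3 were level to the second decimal. The STIP1 difference was -0.11 with an interval from -0.28 to 0.06 (limma adjusted p = 0.714). FKBP4, the immunophilin FKBP52 of steroid receptor complexes, differed by -0.13, and CDC37, which loads kinases onto HSP90, by -0.05, turning to 0.02 without BL-8040 replicate 3. CHORDC1, a zinc-binding HSP90 partner that heat induces, differed by 0.10 and was highest in BL-8040 replicate 2 (7.68), without which its difference was 0.015. The STIP1 difference was -0.07 without BL-8040 replicate 1 and also without control replicate 1, and that of FKBP4 was -0.08 without control replicate 1 and -0.19 without BL-8040 replicate 2.

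Small heat shock proteins hold unfolding clients without ATP. HSPB1, or HSP27, was 12.09, 11.98 and 11.94 after BL-8040, against 12.02, 12.12 and 12.00 in controls. The values overlapped, and the HSPB1 difference was -0.05 with an interval from -0.22 to 0.12. HSPB8, which works with BAG3, differed by -0.22 at a dim signal (percentile 13.2 of all genes), with an interval from -0.54 to 0.11. Its difference was -0.05 without BL-8040 replicate 2, the array with the lowest HSPB8 value (3.01).

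Of the mitochondrial chaperones, TRAP1, the HSP90 of the matrix, had 10.26, 10.25 and 9.96 after BL-8040, against 10.36, 10.44 and 10.32 in controls. All treated values were below all controls, and that of BL-8040 replicate 3 was far below the rest. TRAP1 averaged 10.16 ± 0.17 in treated and 10.37 ± 0.06 in control tumours (SD, n = 3 each). In limma the TRAP1 difference of -0.22 had an unadjusted p of 0.0481 and an adjusted p of 0.644, and the exact permutation p was 0.1. Without BL-8040 replicate 3 it was -0.12. A second, dimmer TRAP1 probe set pointed the other way, at 5.46, 5.56 and 5.48 after BL-8040 and 5.29, 5.37 and 5.49 in controls, a difference of 0.11 with overlapping groups.

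The chaperonin HSPD1, or HSP60, measured 10.12, 10.28 and 10.17 in the BL-8040 tumours, against 10.30, 10.19 and 10.22 in the controls. Its partner lid HSPE1 shares a bidirectional promoter with it. HSPD1 differed by -0.05 with an interval from -0.22 to 0.12, and HSPE1 by 0.01 with an interval from -0.15 to 0.17. HSPA9, the mitochondrial HSP70 that pulls proteins through the inner membrane, differed by -0.06, and its J protein DNAJA3 by -0.08, or -0.02 without BL-8040 replicate 3 and -0.05 without control replicate 1.

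CCT is built from 8 different subunits, and all 8 were measured. TCP1, the first subunit described, was 10.60, 10.57 and 10.56 after BL-8040, against 10.58, 10.64 and 10.58 in controls. These values overlapped and the TCP1 difference was -0.02, with an interval from -0.18 to 0.13. The median difference of the subunits was -0.03, and they ran from -0.08 for CCT7 to 0.04 for CCT6A. Of the 8 subunits 7 were lower (87.5%, beside 58.5% of all genes) and 1 higher, a count over few genes. CCT7 was the 1 subunit whose groups did not overlap (12.5%, beside 9.05% of all genes separated with BL-8040 lower). It had 9.89, 9.89 and 9.85 after BL-8040 and 9.91, 10.05 and 9.92 in controls. The nearest values of both groups were almost level (limma adjusted p = 0.769), and the CCT7 difference was -0.035 without control replicate 2. CCT2 was lowest in BL-8040 replicate 3 (8.99), and its difference turned from -0.03 to 0.04 without that array. CCT3, CCT4, CCT5 and CCT8 differed by between -0.04 and -0.02. SERPINH1, or HSP47, the collagen chaperone, was 11.15, 11.18 and 11.15 after BL-8040, against 11.18, 11.23 and 11.14 in controls, with a difference of -0.03.

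Of the members, 16 were listed as induced by heat shock through HSF1, among them HSPA8 and HSP90AB1, which are described above as constitutive. All but AHSA1 were measured: HSPH1, HSPA4L, HSPA8, HSPB1, HSPD1, HSPE1, HSP90AA1, HSP90AB1, DNAJA1, DNAJB1, DNAJB4, BAG3, STIP1, CHORDC1 and SERPINH1. Of these 15 genes 6 were higher and 9 lower (60%, beside 58.5% of all genes), with a median difference of -0.03, beside -0.02 over all genes. HSPH1 was the 1 gene of them at an unadjusted limma p under 0.05 (6.67%, beside 5.08% of all genes lower), and in 3 of them (HSPH1, HSPA4L and STIP1) the treated values lay wholly below the controls (20%, beside 9.05%). In a list of 50 further chaperone genes, 42 were measured and 0 were called in either direction by limma. There were 17 higher and 25 lower (59.5%, beside 58.5% of all genes), with a median difference of -0.01. At an unadjusted limma p under 0.05, 0 were higher, beside 2.64% of all genes, and 2 were lower (4.76%, beside 5.08%). One of these was HSPA6, an HSP70 gene that is expressed almost only after stress, with 4.73, 5.76 and 5.41 after BL-8040, against 5.95, 5.85 and 5.79 in controls. All treated values were below the controls, BL-8040 replicate 1 by far the most; the HSPA6 difference was -0.56 with an interval from -1.05 to -0.08 (limma adjusted p = 0.644) and -0.28 without that array, at a signal below the median of all genes, and its probe set may also read the near-identical HSPA7. The other was DNAJB13, a J protein of cilia and sperm tails, at a dim 3.39, 3.28 and 3.30 after BL-8040 and 3.69, 3.71 and 3.59 in controls. Its groups were well separated, with a DNAJB13 difference of -0.34 (limma adjusted p = 0.644). Of the 14 genes of prefoldin, which hands actin and tubulin to CCT, and of other tubulin folding factors, 6 were higher and 8 lower (57.1%, beside 58.5% of all genes). By limma 0 of the 14 were called, as were 0% of all genes, and 0 had an unadjusted p under 0.05, beside 7.72%. A count over 14 genes gives no result about them.

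Markers of the tumour and of host cell types were read on the same arrays. The host is mouse and the probe sets are human, so a dim host marker does not show that its cells were few. A bright host marker does not tell host RNA from tumour RNA. All 9 measured neuroblastoma markers had a signal above the median of all genes, whereas 8 of 8 adrenal cortex, 6 of 6 blood, 8 of 10 endothelial, 7 of 10 myeloid and 2 of 10 fibroblast markers lay below it. None of these genes was called by limma, as were 0% of all genes. The fibroblast markers had 8 genes higher and 2 lower (20%, beside 58.5% of all genes). Their mean log2 signal was from 7.96 to 8.35 after BL-8040 and from 8.01 to 8.12 in controls, and was highest in BL-8040 replicate 3. The neuroblastoma markers had 8 of 9 genes lower (88.9%, beside 58.5% of all genes). Their differences ran from -0.64 for TH to 0.03 for MYCN, which is amplified in this line and was the 1 marker not lower. Without BL-8040 replicate 3 the difference was -0.18 for TH, went from -0.62 to -0.22 for DBH and from -0.40 to 0.0013 for CHGA. Those of PHOX2A (-0.24 to -0.20) and HAND2 (-0.21 to -0.19) changed less. The mean log2 signal of the neuroblastoma markers was from 8.34 to 9.01 after BL-8040 and from 8.83 to 9.20 in controls. They were lowest in BL-8040 replicate 3, the array with the lowest TRAP1 and DNAJB1 values. That array held the lowest value of 9 of the 41 members and of 30.5% of all genes, so this is not particular to TRAP1 and DNAJB1. The part of tumour and host cells in the TRAP1 and DNAJB1 values was not tested.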

How the data were processed

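The authors deposited 1 table of log2 values, 1 column for each of 6 arrays (Affymetrix Human Gene 1.0 ST, per the series' design text), made from tumour RNA. The submitters' processing notes name Partek 6.6; how background, normalization and probe summarization were handled is not stated there. The log2 scale was read from the values. No scanner files were used, so there was no detection call.

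Groups and replicate numbers came from sample titles. Of 33297 probe sets, 19460 had 1 gene symbol, 1754 several and 12083 none; the brightest probe set by 6-array mean was kept per gene, giving 18417 genes. BL-8040 and control arrays (3 each) were compared in limma 3.58.1 (lmFit and eBayes, R 4.3.3), two-sided, with Benjamini-Hochberg adjustment over all 18417 genes and a threshold of 0.05. The test was checked on simulated arrays, where recovery was required only for planted changes far larger than any member difference. That check does not show whether differences of the size seen here would be called. Differences are BL-8040 minus control in log2 units, and intervals are 95%. The design text speaks of 3 mice per group, so the arrays of a group are taken as separate animals. The limma p-values set each difference against the spread between animals, with each gene's variance drawn toward a value shared by all genes. Both that spread and the number of arrays limit precision. The chaperone genes and the other lists were chosen with earlier results of these data known. All measured members are named; values per array were set for 9 core genes, for those at an unadjusted p under 0.05 and for any differing by 0.3 or more, and were added for others after their values were seen, as were 3 paralogue ratios. A search of promoters for heat shock elements was not run and no sequence is shown, because the reference tables used here are of the mouse and the probe sets are human.

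Alternatives were 2 filters on dim genes, the mean of probe sets, quantile normalization, centring on the median, robust moderation with a variance trend, weights per array, the replicate block, an adjusted p under 0.1, each array left out, and, chosen after seeing the data, the dimmer probe set of TRAP1 and DNAJB6.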

Additional observations from a re-analysis of the deposited data

How the results depend on the processing

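In none of the settings was a chaperone gene called by limma, nor any of all genes, also at an adjusted p under 0.1. Over every setting a member reached at best an adjusted p of 0.465. The median difference, -0.027, stayed below 0 throughout, but lay between -0.052 (without control replicate 3) and -0.0026 (without control replicate 2) with 1 array left out. The number of members lower at an unadjusted limma p under 0.05, 2 with all arrays, was 1 with the mean of probe sets, 1 with median centring and 1 with array weights, and 3 with either filter on dim genes, with quantile normalization and with the variance trend, where HSPA4L joined (unadjusted limma p between 0.0360 and 0.0477); it was between 1 and 3 with 1 array left out. The number higher was between 0 and 1, DNAJB4 entering without control replicate 1. HSPH1 was among the lower ones in all 15 fits. With the replicate block that number was 3, DNAJB1 joining (unadjusted limma p = 0.0194); the deviations of same-numbered arrays correlated at -0.04, 0.02 and 0.08, so the numbers are not taken to pair tumours. The replicate block changed no call. Of 41 members, 24 kept the sign of their difference everywhere. The sign turned with array weights for CCT2 (0.0061) and HSPE1 (-0.0094), with quantile normalization for HSPA8 (-0.015), with the mean of probe sets for DNAJB6 (-0.0023), and on the dimmer probe set for DNAJB6 (-0.077) and TRAP1 (0.11). With 1 array left out it turned in 15 members with small differences: BAG2 (-0.019 to 0.13), BAG3 (-0.044 to 0.017), CCT2 (-0.069 to 0.040), CCT8 (-0.058 to 0.020), CDC37 (-0.12 to 0.018), DNAJA1 (-0.012 to 0.041), DNAJA2 (-0.00040 to 0.043), DNAJB5 (-0.14 to 0.045), HSP90AA1 (-0.084 to 0.0010), HSPA13 (-0.068 to 0.051), HSPA14 (-0.017 to 0.18), HSPA2 (-0.086 to 0.048), HSPA4 (-0.0072 to 0.055), HSPA8 (-0.0028 to 0.027) and HSPE1 (-0.019 to 0.045). The cause of these turns was not tested.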
